A study of Drosophila melanogaster with 3 samples.

Results

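Peaks of the ecdysone-induced transcription factor Broad were examined at 5 genes that encode insulator proteins of Drosophila melanogaster: Cp190, BEAF-32, CTCF, su(Hw) and mod(mdg4). The rule names the members and uses no signal, but they were proposed with earlier results of these data known. All 5 of them were found among the 13968 nuclear protein-coding genes of the annotation. A region belonged to a member when its summit lay in the annotated gene body or within 2 kb of it. The material was 1 group of 3 biological replicates, numbered 2, 3 and 4, of whole wandering larvae in the third instar, both sexes pooled, age not known. The larvae came from a transgenic line, br-re-GFP, that expresses the br-RE form of Broad with GFP at its C terminus, and chromatin was recovered with an antibody against GFP after sonication to 200 to 800 bp. The labels name 1 line only and give no promoter of the transgene and no other allele. There was no second condition, so nothing here is a difference between conditions, and no test was run.

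Insulator proteins mark and help to form boundaries between chromatin domains, and in some reporter settings they keep an enhancer from acting on a promoter beyond them. In the fly, su(Hw), CTCF and BEAF-32 encode zinc finger proteins that bind DNA directly, while Cp190 and mod(mdg4) encode BTB domain proteins that are recruited as shared partners. Broad itself carries a BTB domain together with zinc fingers, and its gene is switched on early in the response to the moulting hormone ecdysone.

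The authors deposited a list of 2533 peaks that passed their reproducibility threshold, here the optimal list, and a longer list of 27389 regions called on the replicates pooled. They also deposited 30000 ranked regions for each replicate, weak ones included. The optimal peaks were the strongest 2533 pooled regions. Strength is a signal value of the authors' peak caller, used here only to rank regions within a list, with rank 1 the strongest. The 2533 strongest regions of each replicate are its top regions. Replicates 2, 3 and 4 held 29977, 29964 and 30000 nuclear regions. Read depth is unknown, so it gives no measure of precision. Larvae were used whole, so binding in few cells and weak binding in many cells cannot be told apart.

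Of the 5 genes, Cp190, BEAF-32 and mod(mdg4) held optimal peaks, and CTCF and su(Hw) held none. These 3 genes together held 6 optimal peaks: 1 at Cp190, 3 at BEAF-32 and 2 at mod(mdg4). Among all protein-coding genes 21.4% held at least 1 optimal summit by the same rule, 5.28% held 2 or more, as BEAF-32 and mod(mdg4) did, and 1.49% held 3 or more, as BEAF-32 did. With only summits within 1 kb of an annotated transcription start site (TSS) of the gene itself, 2 of the 5 members held a peak, Cp190 and BEAF-32, against 13.5% of all genes. In the pooled list every member held at least 1 region, 25 regions in all, against 71.9% of genes with 1 or more. These shares take no account of gene length, and the mod(mdg4) window spans 30556 bp, against 6162 to 8810 bp at the other members. Of the 2 optimal peaks of mod(mdg4), 1 lay upstream of the gene and nearer to the start of tin. A gene set of 5 is small, and the shares are descriptions.

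**Figure D1:**
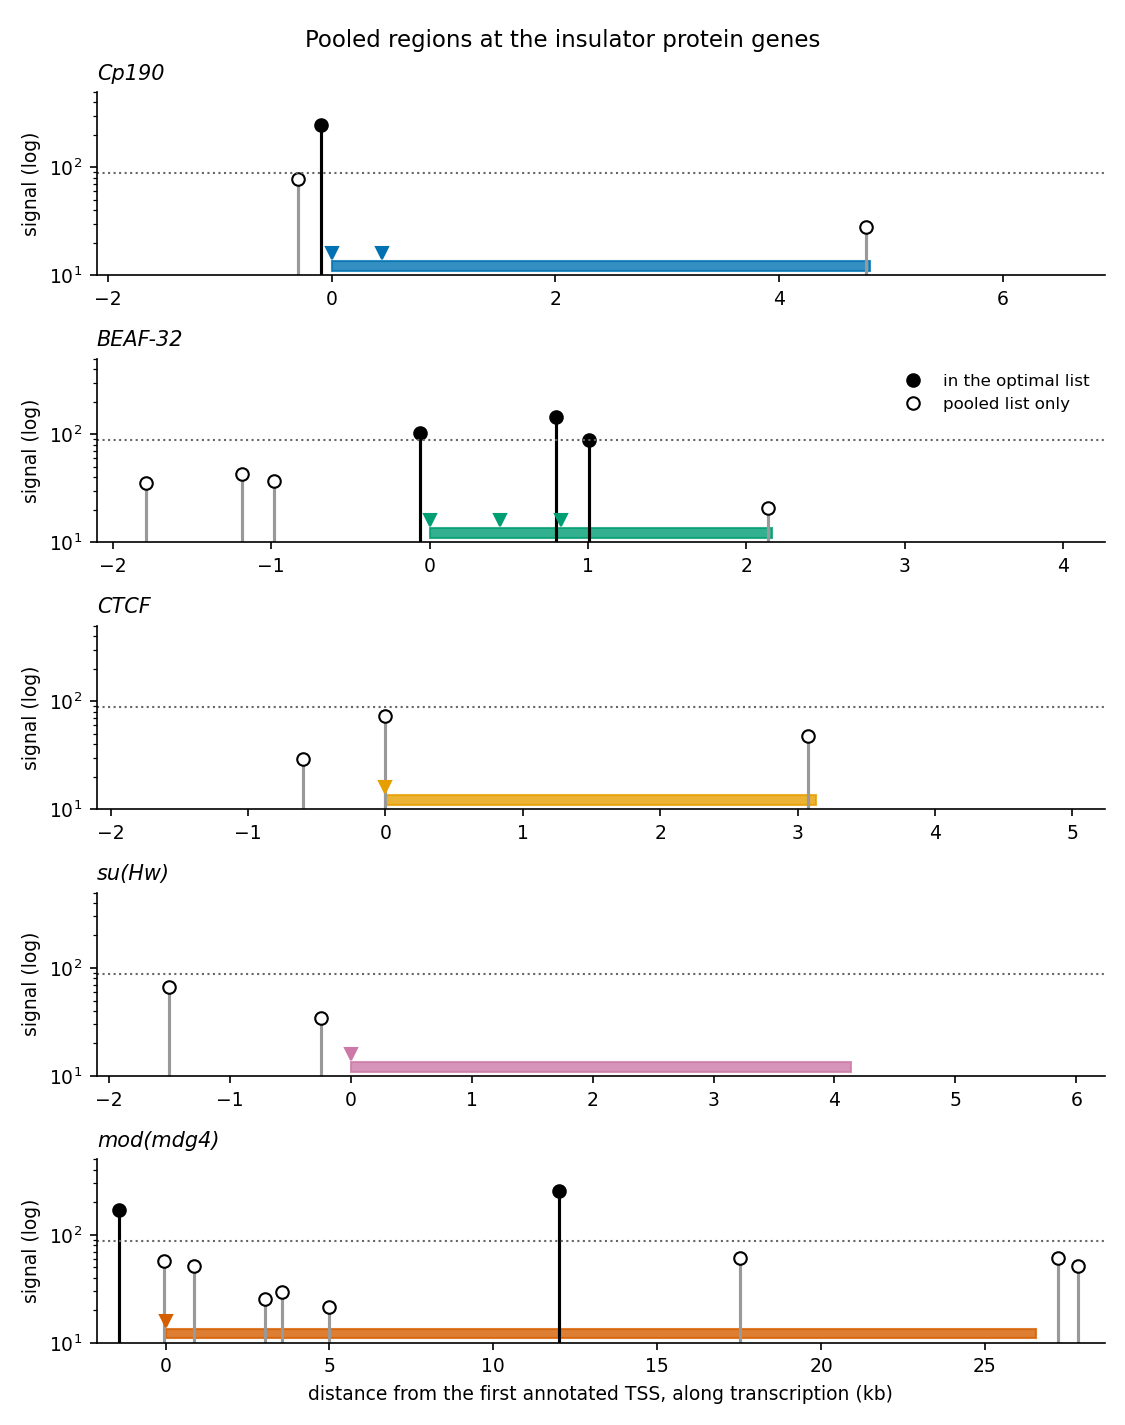
Pooled regions at the 5 genes. Each panel shows 1 gene: the horizontal axis is the distance of a summit from the gene's first annotated TSS in kb along transcription, and the vertical axis is the authors' signal on a log scale. Filled points are optimal peaks, open points are in the pooled list only, the dotted line is the weakest optimal signal (88.3), bars are gene bodies and triangles are TSSs. Filled points lie close to the starts of Cp190 and BEAF-32, deep inside and in front of mod(mdg4), and are missing at CTCF and su(Hw).

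Cp190 encodes a BTB and zinc finger protein, first known from centrosomes, that is a partner shared by several insulator complexes. The gene lies on chromosome arm 3R (15270432 to 15275241, minus strand, dm6), has 2 annotated transcripts with different starts, and carried a single optimal peak. That peak spans 15275131 to 15275534, and its summit at 15275333 lies 92 bp upstream of the Cp190-RA start and 189 bp from the start of CG4338, which is transcribed the other way. The gap between these starts is the stretch where the summit falls, so the peak belongs to both genes by position. Its signal was 246 in the optimal list, at rank 339. The counterpart in replicate 2 had a signal of 79.6 and rank 739, that in replicate 3 had 96.3 and rank 169, and that in replicate 4 had 70.6 and rank 376. All 3 lie among the top regions, with summits within 68 bp of the pooled summit. The strongest region of Cp190 stood at 1.43% ± 0.962 (SD, n = 3) of the replicate lists, and without replicate 2 at 0.908%.

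The whole gap between the 2 starts is shown because it holds the summit and no annotated exon (dm6, 3R, 15275242 to 15275521, plus strand, RefSeq copy of the assembly). A stretch of 30 bases across the Cp190-RA start (15275230 to 15275259) is shown with it because the word TATCGATA lies there, at 15275238 to 15275245. Capitals mark matches on either strand to 7 words: TATCGATA, to which the Dref protein binds, CGATA, a short word known from BEAF-32 sites, GAGAG, known from sites of the GAGA factor, and GGTCACAC, known from sites of M1BP. The last 3 are CTATTT and also AAACTA, and as a longer word GTAAACA, which are linked with Broad. Every TATCGATA also counts as CGATA on both strands.
Cp190 start: tcggcagcTATCGATAgccatgCGATAacc
Cp190 to CG4338: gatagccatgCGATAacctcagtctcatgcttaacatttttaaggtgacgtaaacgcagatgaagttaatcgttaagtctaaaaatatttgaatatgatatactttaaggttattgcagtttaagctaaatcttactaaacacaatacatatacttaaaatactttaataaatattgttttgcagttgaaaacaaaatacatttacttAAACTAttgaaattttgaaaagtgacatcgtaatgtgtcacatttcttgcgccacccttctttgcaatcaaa
Of the 2510 windows reaching 100 bp to either side of a nuclear optimal summit, 3.31% held TATCGATA and 28% held CGATA. The Cp190 window held TATCGATA 1 time and CGATA 3 times. Its G and C content was 28.9%, against a median of 35.8% over all these windows. A match is a description of the letters and does not show a bound site.

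A weaker pooled region (15275342 to 15275745, rank 3193, signal 78.0) overlapped the Cp190 peak, with its summit 22 bp from the start of CG4338. The summits of these overlapping regions lie 211 bp apart. Replicate 2 listed both (ranks 739 and 5215), while replicates 3 and 4 listed only 1 region each there, with its summit between them. Whether these are 1 site or 2 was not tested. At the other end of the gene a region in the 3′ UTR (summit 15270469) had rank 16583 in the pooled list and a counterpart in replicate 3 only, at rank 13171.

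mod(mdg4) encodes a family of BTB proteins, among them the partner of su(Hw) at the gypsy insulator, and its messages are known for trans-splicing, in which a shared front part is joined to one of many alternative ends transcribed separately. The gene spans 26556 bp on 3R (21350846 to 21377401, minus strand), and its 22 annotated transcripts all start at 21377401. The annotation adds 23 records named pre-mod(mdg4), 14 on the minus and 9 on the plus strand, for the separately started ends.

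The strongest peak of the 5 genes was not at the shared start of mod(mdg4) but 11990 bp inside the gene, at a cluster of these internal starts. It spans 21365296 to 21365449, 154 bp where the other 5 peaks span 404 bp, and had a signal of 257 and rank 302. Its summit at 21365411 lies in an intron of mod(mdg4), and in the 5′ UTR of pre-mod(mdg4)-E, 77 bp from the start of that record at 21365488. A second minus-strand start, at 21365290 and shared by 3 records, is 121 bp away on the other side. The summit is 198 bp from the plus-strand start at 21365609, shared by 7 records. In replicate 2 the matching region had a signal of 84.7 and rank 647, in replicate 3 a signal of 70.7 and rank 356, and in replicate 4 a signal of 103 and rank 175. All 3 summits fell within 43 bp of the pooled summit. Replicate 4 listed a second region there, at 21365572 with rank 1317, closer to the plus-strand start.

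The start of pre-mod(mdg4)-E at 21365488 and that of the plus-strand records point away from each other. The gap between them is shown because it is the part of this internal start cluster without an annotated exon (dm6, 3R, 21365489 to 21365608, plus strand). This gap lies outside the called peak, which ends at 21365449, and does not hold its summit at 21365411. Beside the gap stands the sequence 100 bp to either side of the summit of the other mod(mdg4) peak, described next (21378722 to 21378922, plus strand). Capitals mark the same 7 words.
mod(mdg4) internal gap: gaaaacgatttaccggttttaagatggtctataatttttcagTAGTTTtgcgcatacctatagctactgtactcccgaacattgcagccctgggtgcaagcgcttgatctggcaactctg
mod(mdg4) to tin: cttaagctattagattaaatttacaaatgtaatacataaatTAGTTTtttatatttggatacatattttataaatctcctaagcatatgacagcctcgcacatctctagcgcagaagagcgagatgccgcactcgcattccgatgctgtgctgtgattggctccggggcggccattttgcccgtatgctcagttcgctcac
The windows of the mod(mdg4) peaks held no TATCGATA and no CGATA. The window of the rank 302 peak, which only partly overlaps the stretch shown, held GTAAACA, found in 6.37% of optimal windows, and that of the other peak held AAACTA, found in 20.8%. The G and C contents of these windows were 30.3% and 41.8%. The AAACTA match marked in the internal gap, at 21365531 to 21365536, lies outside the rank 302 window.

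The other peak of mod(mdg4) (21378620 to 21379023, signal 171, rank 719) lay 1421 bp upstream of its start and 155 bp from the start of tin, which encodes the homeodomain factor tinman of heart development. By distance it is a tin peak, counted here only by the 2 kb rule. Its counterparts had a signal of 81.8 and rank 693 in replicate 2, 53.6 and rank 685 in replicate 3, and 25.6 and rank 2112 in replicate 4. The region is well up in replicates 2 and 3 and near the end of the top regions in replicate 4.

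The shared start of mod(mdg4) itself had a pooled region (summit 21377447, 46 bp from the start) at rank 5444, outside the optimal list. Replicate 2 listed it at rank 7978 and replicate 3 at rank 1840, and replicate 4 listed no region within 500 bp of that start. Of the 8 distinct starts annotated for mod(mdg4) and the pre-mod(mdg4) records, 3 had an optimal summit within 500 bp, all 3 of them the same rank 302 peak, and 7 had a pooled region. The pair of starts at 21359768 and 21360176, which point away from each other, shared the pooled region of rank 4904. Its replicate ranks were 10626, 4017 and 12512 in replicates 2, 3 and 4. The start at 21373575 had the pooled region of rank 15391, seen in replicate 2 only (rank 9274), and the start at 21368129 had none. In every replicate the region at this internal cluster ranked above those at the other starts of the gene.

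**Figure D2:**
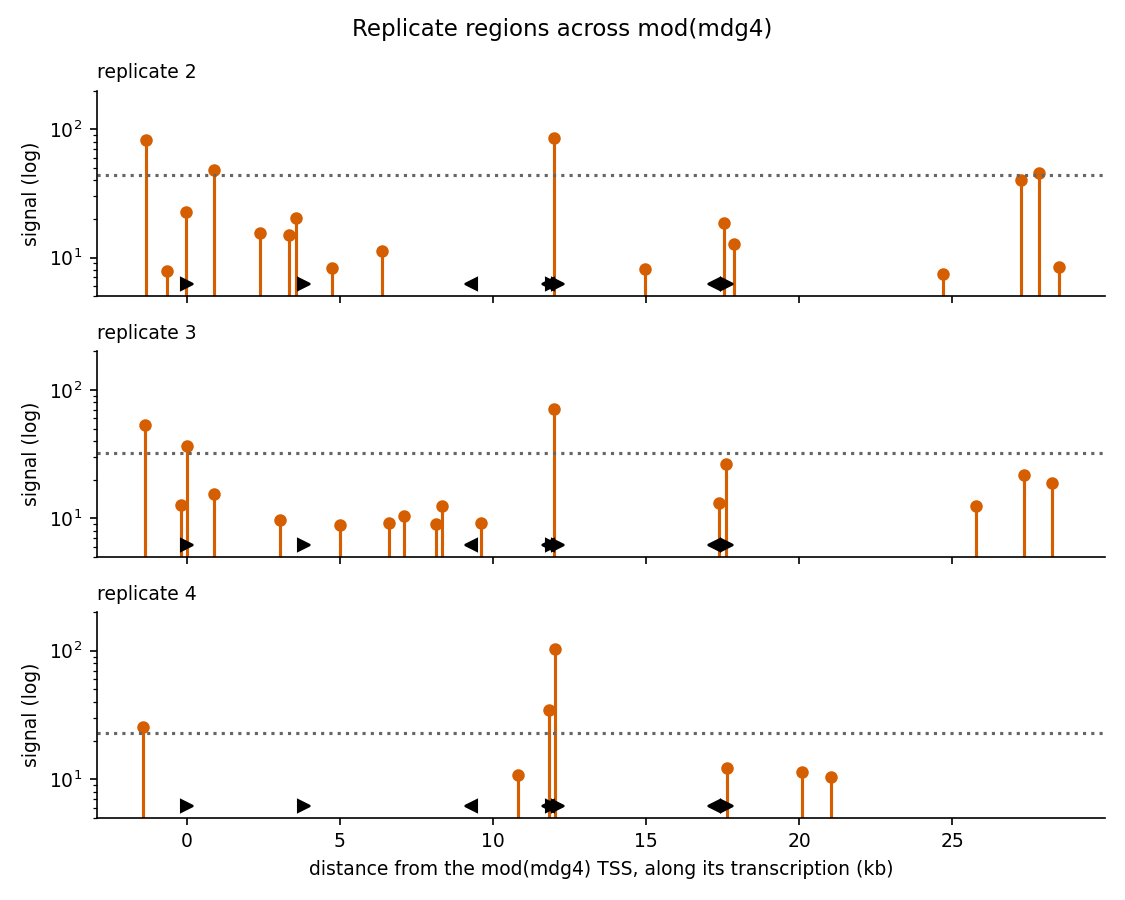
Replicate regions across mod(mdg4). The horizontal axis is the distance from the mod(mdg4) TSS in kb along its transcription, the vertical axis is the authors' signal on a log scale, and each stem is a region of that replicate. Triangles mark annotated starts and point along their transcription, and the dotted line is the signal at rank 2533 of that replicate (44.2, 32.4 and 23.0 in replicates 2, 3 and 4). Stems at the internal start cluster and in front of the gene pass the line in all 3 replicates.

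CTCF encodes the fly form of the zinc finger protein known from vertebrate domain boundaries. The gene lies on 3L (7353578 to 7356713, minus strand) with 1 annotated transcript. Its strongest pooled region (7356510 to 7356913, signal 73.3, rank 3539) had its summit 1 bp from the TSS, and its signal was below the weakest optimal signal of 88.3. Replicate 2 listed this region with a signal of 21.8 at rank 8480 and replicate 3 with 25.1 at rank 4553. Replicate 4 listed no region anywhere in the gene body plus 2 kb. CTCF was thus the only member without a region of every replicate, against 49.7% of protein-coding genes that had one. A mean over 3 replicates cannot be given; the 2 listed values are 28.3% and 15.2% of the lists.

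The 200 bases upstream of the CTCF start are shown because the summit lies at that start (dm6, 3L, 7356714 to 7356913, plus strand, so that transcription runs to the left). The annotation places records of the transposable element Quasimodo at 7356856 to 7356882 and from 7356903 to 7357179, over the right-hand end of this stretch and beyond it.
CTCF upstream: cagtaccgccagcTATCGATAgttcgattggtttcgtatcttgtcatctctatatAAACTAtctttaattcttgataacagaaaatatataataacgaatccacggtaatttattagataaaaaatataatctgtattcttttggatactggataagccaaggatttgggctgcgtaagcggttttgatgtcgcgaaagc
Here too the word TATCGATA was present, at 7356727 to 7356734, followed by AAACTA at 7356769 to 7356774. TATCGATA thus lay near the starts of both Cp190 and CTCF, and in none of the windows of the 5 optimal peaks at BEAF-32 and mod(mdg4). The pooled region of rank 7295 lay in the 3′ UTR of CTCF (summit 7353639), with ranks 12105 and 5852 in replicates 2 and 3. The third, of rank 15664, lay 598 bp upstream of the CTCF start, with rank 5916 in replicate 3 only.

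su(Hw) encodes the zinc finger protein that binds the gypsy insulator and recruits the products of mod(mdg4) and Cp190. The gene lies on 3R (14304455 to 14308589, minus strand) with 3 transcripts that share a start. Its window held 2 pooled regions and no optimal peak. The stronger of them (14309891 to 14310294, signal 67.2, rank 4132) lay 1504 bp upstream of su(Hw) and 269 bp from the start of CG31321, beyond the neighbour Polr2I. Its counterparts had a signal of 31.7 and rank 2660 in replicate 3, and 24.0 and rank 2308 in replicate 4, but replicate 2 had none within 200 bp. The region nearer to su(Hw) (summit 14308834, 245 bp upstream of its start) had rank 12229 in the pooled list, 7999 in replicate 3 and 15802 in replicate 4, and no counterpart in replicate 2. Replicate 2 listed a region with its summit at 14308628, at rank 18618, which was its strongest at su(Hw).

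The strongest region of su(Hw) therefore differed between replicates by more than that of any other member, at 62.1%, 8.87% and 7.69% of the lists of replicates 2, 3 and 4. The mean of 26.2% ± 31.1 (SD, n = 3) rests on replicate 2, without which it was 8.28%. It also rests on the CG31321 side of the window, since with a window of 1000 bp it was 47.1%.

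The sequence 100 bp to either side of the summit between su(Hw) and Polr2I is shown as the start region of a member with no optimal peak (dm6, 3R, 14308734 to 14308934, plus strand).
su(Hw) to Polr2I: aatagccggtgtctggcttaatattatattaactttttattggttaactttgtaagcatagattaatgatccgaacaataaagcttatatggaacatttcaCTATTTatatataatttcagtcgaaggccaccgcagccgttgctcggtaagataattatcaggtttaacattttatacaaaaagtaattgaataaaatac
It held CTATTT at 14308835 to 14308840, at the summit, a word found in 20.4% of optimal windows, and no other of the 7 words.

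BEAF-32 encodes a pair of protein forms of the boundary element-associated factor, which differ in their front part, as the transcripts start at different points. The gene lies on 2R (14770469 to 14772630, plus strand), is 2162 bp long and has 3 transcripts with 3 starts. It was the most densely covered member, with 1.14 pooled regions per kb of body plus window, against 0.246 to 0.420 in the other 4. That count includes regions nearer to the start of the neighbour Spred, and 2 pairs of neighbouring summits under 250 bp apart. The optimal peaks of BEAF-32 sat at the outer starts. The peak of rank 1003 (14771067 to 14771470, signal 144) had its summit 32 bp upstream of the BEAF-32-RB start and 26 bp from a start of the antisense gene asRNA:CR42254. The peak of rank 1880 (14770210 to 14770613, signal 103) had its summit 57 bp upstream of the BEAF-32-RA start. The peak of rank 2524 (14771276 to 14771679, signal 88.5) lay in a coding exon, 177 bp past the RB start, and was among the last of the 2533. Its summit is 209 bp from that of rank 1003, and the regions overlap, so whether these are separate sites was not tested.

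Replicates differed in which BEAF-32 peaks they ranked high. For the rank 1003 peak the signals were 49.9, 36.4 and 59.6 in replicates 2, 3 and 4, at ranks 1987, 1869 and 507, and the summits fell within 1 bp of the pooled summit in all 3. The rank 1880 peak had signals of 23.1, 33.6 and 44.8 at ranks 7840, 2305 and 836. Its best-ranked counterpart in replicate 3 lay 149 bp away, and the region closest to it there, 59 bp away, had rank 14116. For the rank 2524 peak the signals were 33.9, 16.9 and 34.5, at ranks 4190, 10445 and 1302. Replicate 4 thus ranked every BEAF-32 peak higher than the other replicates did, and only the rank 1003 peak was a top region in all 3. The strongest BEAF-32 region stood at 4.85% ± 2.74 (SD, n = 3) of the lists.

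The BEAF-32 windows of rank 1003, 1880 and 2524 had G and C contents of 35.3%, 30.3% and 46.8%. The word CGATA was in the windows of rank 1003 and 2524, 1 and 3 times, and GTAAACA in those of rank 1003 and 1880, 1 and 2 times. AAACTA was in the window of rank 1880 only, 1 time. No window of the 6 optimal peaks held GAGAG, found in 26.5% of optimal windows, nor GGTCACAC, found in 1.51%. The other 4 pooled regions of BEAF-32 were weak: 3 lay on the side of the neighbour Spred at ranks 8605 to 11722, and 1 lay in the 3′ UTR at rank 26924. Each of these 4 had a counterpart in replicate 3 only, and those of rank 8605 and 11030 shared theirs, at rank 2629.

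**Figure D3:**
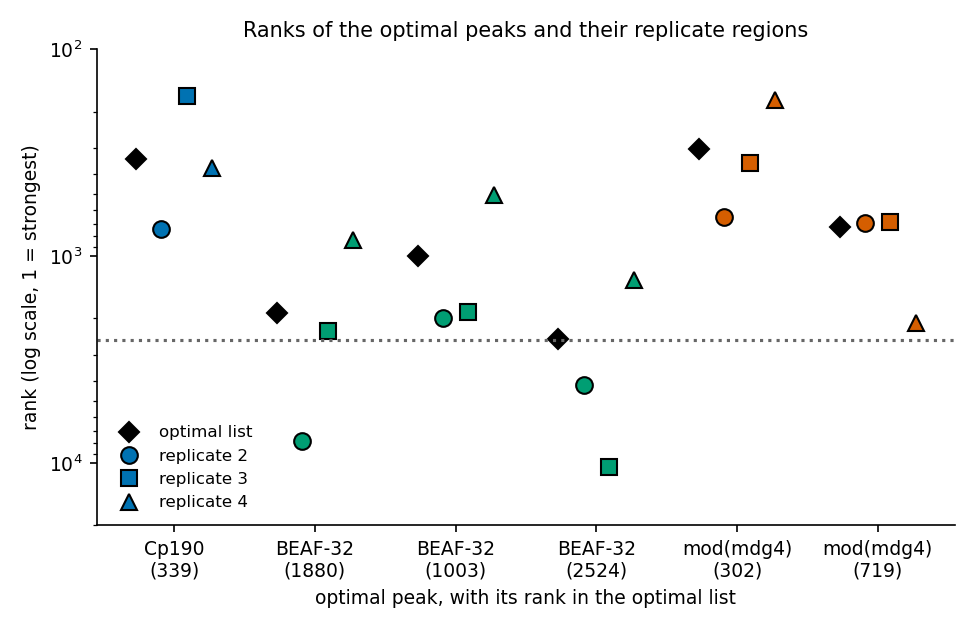
Ranks of the 6 optimal peaks. The horizontal axis gives each peak by gene and optimal rank, and the vertical axis gives ranks on a log scale with the strongest at the top. Diamonds are the optimal list, circles, squares and triangles are the best-ranked region within 200 bp in replicates 2, 3 and 4, colours mark genes, and the dotted line is rank 2533. The Cp190 peak, both mod(mdg4) peaks and the BEAF-32 peak of rank 1003 have all their symbols above the line.

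Over the members, 4 of the 6 optimal peaks were found among the top regions of all 3 replicates, against 38.5% of the 2510 nuclear optimal peaks. The 6 peaks were also stronger, with a median optimal rank of 861 against 1274.5, and peaks of like strength were not compared. All 6 summits lay within 200 bp of a protein-coding start, of the member or of a neighbour, against 34.9% of nuclear optimal summits. The median distance was 84.5 bp at the members against 553 bp overall. The window was drawn around genes, which brings starts near by its construction. A pair of the 6 summits, that of Cp190 and that inside mod(mdg4), lay between starts that point away from each other, within 500 bp on both sides. Of all nuclear optimal summits 17.5% did. Inside mod(mdg4) the starts counted are those at 21365290 and 21365609. The summit there is not in the gap from 21365489 to 21365608 shown above.

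In the replicates taken alone, 3 members had a top region in replicate 2, 3 in replicate 3 and 4 in replicate 4, against 18.5%, 24.7% and 20.7% of protein-coding genes. The member added in replicate 4 was su(Hw), by its region near CG31321. Replicate 4 nevertheless listed fewer regions at the members, 13 in all, or 2.6 a member. Replicates 2 and 3 listed 33 each, or 6.6 a member. With its long window, mod(mdg4) held 7 of the 13, and 17 of the 33 in each of replicates 2 and 3. The mean over protein-coding genes was 2.58 regions a gene in replicate 4, 3.16 in replicate 2 and 3.17 in replicate 3. Of the 25 pooled regions at the members, 8 had a counterpart within 200 bp in all 3 replicates, against 20.6% of the 27362 nuclear pooled regions. The 6 optimal peaks are among these 8. Another is the Cp190 region of rank 3193. Its counterparts in replicates 3 and 4, at ranks 169 and 376, are those of the rank 339 peak, so only replicate 2 gave it one of its own. The share over all pooled regions is counted by the same rule.

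Ordered by the strongest pooled region in body plus 2 kb, mod(mdg4) came first, at place 488 of 13968 protein-coding genes, and Cp190 next, at place 547. BEAF-32 was at place 1409, CTCF at 3888 and su(Hw) at 4316, and 10044 genes had a pooled region at all. Genes that share a region share a place, and the places take no account of gene length. In percent of the replicate lists mod(mdg4) stood at 1.31% ± 0.794 and Cp190 at 1.43% ± 0.962 (SD, n = 3 each), which do not differ beyond their spread. BEAF-32 at 4.85% ± 2.74 lay further down, but the groups of values overlap: BEAF-32 in replicate 4, at 1.69%, ranked higher than mod(mdg4) at 2.16% and Cp190 at 2.46% in replicate 2. su(Hw) and CTCF had values of 7.69% to 62.1%, further down than any value of the other 3 genes.

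**Figure D4:**
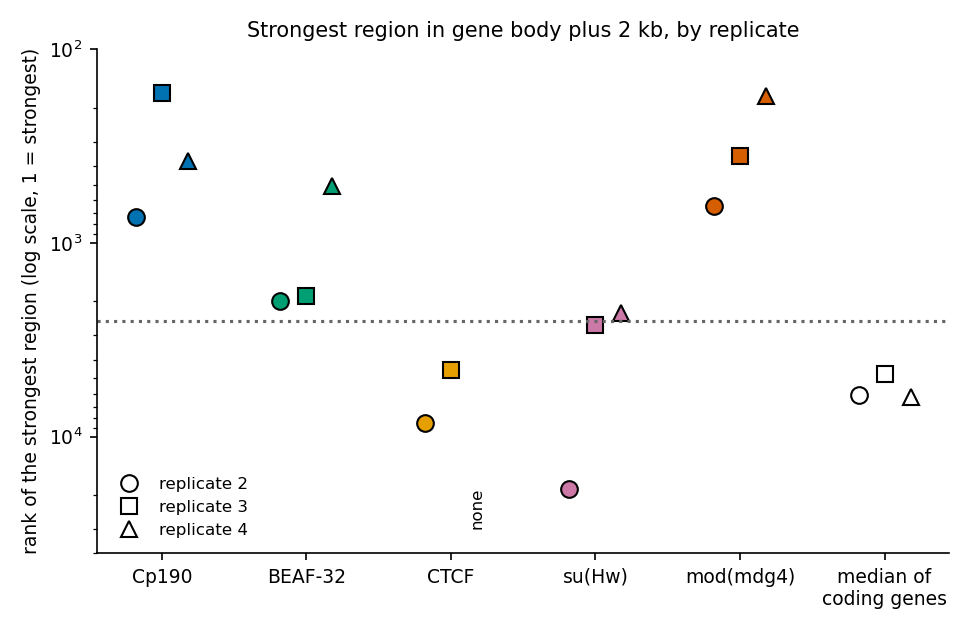
Strongest region of each gene by replicate. The vertical axis is the rank of the strongest region in the gene body plus 2 kb on a log scale with rank 1 at the top, for the 5 genes and, in white, the median over protein-coding genes that have a region. Circles, squares and triangles are replicates 2, 3 and 4, and the dotted line is rank 2533. mod(mdg4), Cp190 and BEAF-32 lie above the line in all 3 replicates, su(Hw) in replicate 4 only, and CTCF in none.

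The genes most like each member were sought by the ranks of their strongest regions in the 3 replicates, as the sum of absolute differences in log2 rank, over up to 6938 genes that share no region with the member. For mod(mdg4) the closest were Rbsn-5, a gene of endosomal transport (0.475; ranks 555, 393 and 162 in replicates 2, 3 and 4) and jar, which encodes a myosin (0.483; ranks 756, 369 and 202). CG7099 (0.649) and Cyp6u1 (0.686) came closest to Cp190, and ND-MWFE and Nrk, which have the same regions (0.107; ranks 1997, 1819 and 486), to BEAF-32. Brms1 (0.370) and CG5003 (0.460) came closest to su(Hw), and CTCF could not be compared. With 3 points per gene this is a description of ranks alone.

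Genes of proteins that work with insulators gave a mixed picture. Of 18 other insulator and architectural protein genes, 6 held an optimal summit in body plus 2 kb (33.3%, against 21.4% of all genes) and 5 held one within 1 kb of a start (27.8%, against 13.5%). Chro, which encodes the interband protein Chromator, had the strongest promoter peak, at rank 26, with its strongest regions at ranks 37, 50 and 14 in replicates 2, 3 and 4. Trl, the GAGA factor gene, held 5 optimal summits, the best at rank 126 and the best promoter peak at rank 569. Dref, whose product binds TATCGATA, had a promoter peak at rank 1150, with ranks 999 and 864 in replicates 2 and 3 and no region in replicate 4. M1BP, which encodes a zinc finger protein of promoters, followed at rank 1922, with ranks 3096, 2872 and 1454 in replicates 2, 3 and 4. Last came e(y)2, a gene of transcription and mRNA export, at rank 2212, with ranks 3051 and 3698 in replicates 2 and 3. It had no region in replicate 4 and no top region in any replicate. pita held an optimal peak at rank 1551 that was not within 1 kb of its start, Clamp, which encodes a zinc finger protein of GA-rich DNA, held pooled regions only, the best at rank 4241, and dwg, the gene of the boundary protein Zw5, held no region in any list. The median rank of the strongest pooled region was 4419 over the 15 genes of this list with a pooled region, against 5334 over all protein-coding genes with one.

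Of 7 cohesin and condensin genes, 1 held an optimal summit in body plus 2 kb (14.3%, against 21.4% of all genes), and the same 1 held it within 1 kb of a start (14.3%, against 13.5%). This was Cap-H2, a condensin subunit gene whose product interacts with insulator proteins, at rank 824, with ranks 2444, 389 and 882 in replicates 2, 3 and 4. The cohesin genes vtd, SMC1 and SMC3 had their strongest pooled regions at ranks 9309, 3546 and 2914. A top region was present at 1 of the 7 genes in replicate 2, 4 in replicate 3 and 1 in replicate 4, against 18.5%, 24.7% and 20.7% of all protein-coding genes.

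**Figure D5:**
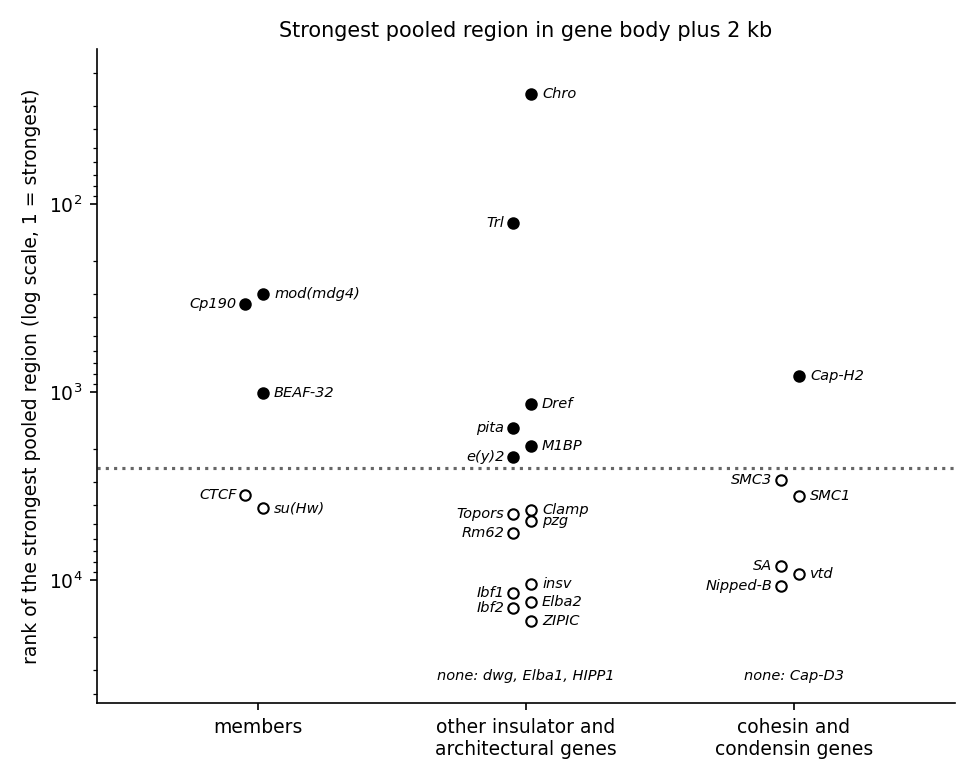
Strongest pooled region of the 5 members, of the 18 other insulator and architectural protein genes and of the 7 cohesin and condensin genes. The vertical axis is the rank in the pooled list on a log scale with the strongest at the top, filled points are in the optimal list, open points are not, the dotted line is rank 2533, and genes with no pooled region are named at the foot. Chro and Trl stand above all 5 members, and Cap-H2 is the only filled point of its group.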

How the data were processed

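The authors deposited, for the dm6 assembly, ranked regions of each replicate, a list called on the replicates pooled and an optimal list that passed an irreproducible discovery rate threshold, per the file headers. The peak signal per region (7th column) and the −log10 q-value per region are the authors', per the narrowPeak file type that the file headers name. The q-value was read but not used. The file headers derive the lists from alignments and a control, which was not analysed here. The sources used here name neither aligner nor peak caller, the scale of the signal is unknown, and dm3 lists were not used. Replicates come from separate biological samples, per the labels.

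Genes and starts came from Ensembl release 115 (BDGP 6.54) without transposable elements (read only for the printed stretches) and pseudogenes, and sequence from RefSeq's copy of the same assembly. The symbol SA was matched to SA1. Summit positions are 1-based. Regions were shared between lists when summits lay within 200 bp, taking the best-ranked region. Counting, with Python 3.11.15 and pandas 2.3.3, was tested on simulated data. Members and lists were chosen with earlier results of these data known. Named genes are the members, genes with the start nearest to a summit, bound list genes in order of rank and up to 3 unbound ones in list order, and the 2 genes most like each member. No column of per-sample values was left unmapped.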

Additional observations from a re-analysis of the deposited data

How the results depend on the processing

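Of 82 alternative values, 73 stayed within 1.5 times the count, or within 1 SD of the mean, and 9 did not. Leaving out 1 replicate cannot move a mean over the replicates by 1 SD, so those means were bound to stay. The SD of 31.1 at su(Hw) also let 47.1% (window of 1000 bp) and 52.15% (gene body alone, n = 2) stay, against 26.2%. The number of members with an optimal summit was 3 with windows of 1000 and 5000 bp, with any overlap, with the upper 50% of optimal peaks and without replicate 2, 3 or 4. It was 2 with TSSs only or with gene bodies alone. The optimal list was not called again without a replicate. Without replicate 2, 3 or 4 the members held 5, 4 and 4 optimal summits, as many as were top regions in the replicates left. Counted in gene bodies alone, the members held 3 optimal summits in place of 6, Cp190 held 0 and mod(mdg4) held 1, and the strongest Cp190 region lay at 65.8% of the lists (n = 2). With 1000 bp mod(mdg4) held 1. With 50% as many top regions, 2 of the 6 peaks were found in all 3 replicates, and without 1 replicate 4 to 5 were. Of the other insulator and architectural genes, 2 held an optimal summit in gene bodies alone and 3 among the upper 50% of peaks, and of the cohesin and condensin genes 0 did in gene bodies alone. All 3 of these alternatives were chosen after seeing the data. With 5000 bp the CTCF value was 13.9% of the lists in place of 21.7% (n = 2). Leaving out a replicate gave 0.908% to 1.86% for Cp190, 3.96% to 6.43% for BEAF-32, 15.2% to 28.3% for CTCF, 8.28% to 35.5% for su(Hw) and 0.885% to 1.67% for mod(mdg4). The cause was not tested for any of these. No paired analysis was possible because there is 1 group only.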
